A study of Mus musculus with 30 samples.

Results

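The genes described here are 10 transcription factors that shape medium spiny neurons, the projection neurons that make up most of the striatum: Foxp1, Foxp2, Bcl11b, Ebf1, Meis2, Rarb, Zfp503, Sp8, Six3 and Mef2c. They were found in the count table by their Ensembl identifiers, matched to GENCODE release M21, and all 10 were present among its 55335 genes. All 10 also passed the filter on low counts and are among the 19368 genes tested. The study pulled tagged polyribosomes out of nucleus accumbens punches of female mice and sequenced the bound RNA. The D1-Cre-RT line tags ribosomes in neurons with the D1 dopamine receptor, and the A2A-Cre-RT line in neurons with the adenosine A2A receptor, which are those with the D2 receptor, so the libraries are called D1 and D2. Chronic witness defeat stress is named in the labels of the Resilient and Susceptible libraries and not in those of the Control libraries. Stressed mice were sorted into Resilient and Susceptible by social interaction score, and tissue was taken 24 h after that test. Control, Resilient and Susceptible are called stress groups below, though Control mice are not labelled as stressed. The 6 groups were D1 Control, D1 Resilient, D1 Susceptible, D2 Control, D2 Resilient and D2 Susceptible, with 5 libraries each. The ribosome tag is carried by all 6 groups, the Control groups included. Every library pools RNA from 4 mice with similar scores, so the spread given below is between pools and not between single animals.

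Medium spiny neurons arise in the embryonic lateral ganglionic eminence and settle into a direct-pathway class with the D1 receptor and an indirect-pathway class with the D2 receptor. Foxp1, Foxp2, Bcl11b, Meis2, Rarb and Zfp503 are known from the development of medium spiny neurons. Ebf1 is known for its need in the direct-pathway class and Sp8 and Six3 for theirs in the indirect-pathway class. Mef2c acts in many neurons and links activity to synapse number.

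Each library held 28996168 to 65882152 counts in genes. The labelled classes were checked with marker genes, by an index, the mean log2 level over 6 D2 markers less the mean over 7 D1 markers. It lay between -1.20 and 0.52 in the D1 libraries and between 0.92 and 4.96 in the D2 libraries, so the ranges did not overlap. The index was above 0 in D1 Control replicate 1 and D1 Susceptible replicates 1, 4 and 5. Markers of the other class were present too. D2 markers summed to 1144 to 2829 CPM (counts scaled to the library's size) in D1 libraries, beside 1736 to 2609 CPM of D1 markers. D1 markers summed to 281 to 1858 CPM in D2 libraries, beside 4911 to 12872 CPM of D2 markers. The part of such RNA in the D1 minus D2 values below was not tested. The libraries were not free of other cells. Endothelial and mural markers summed to 16.3 to 47.2 CPM in D1 libraries and 82.0 to 370 CPM in D2 libraries. Cortical projection neuron markers summed to 596 to 1068 and 248 to 653 CPM, and interneuron markers to 304 to 501 and 85.0 to 296 CPM. Astrocyte markers summed to 245 to 688 CPM in D1 and 269 to 610.5 CPM in D2 libraries, and oligodendrocyte markers to 383 to 998 and 433 to 1894 CPM. None of the 6 endothelial and mural, 6 cortical, 6 astrocyte or 6 oligodendrocyte markers was at 0 in any library, and of the 8 interneuron markers Slc18a3 was at 0 in 2 libraries. Some libraries, 4 in all, stood apart. D2 Susceptible replicates 1 and 2 had a count in 15822 and 16525 genes, where the other libraries had one in 19440 to 22375. D1 Susceptible replicate 1 had 53.3% of its reads in the summary lines of reads not assigned to a gene. A single gene, Gm42418, took 54.9% of its gene counts, which left an effective library size of 9855837 counts, so its CPM values rest on fewer counts than its total gives. D2 Resilient replicate 5 had the lowest marker index of the D2 libraries. Results that rest on these libraries are given with and without them.

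Promoter sequence was available from RefSeq (GRCm38.p6) for 9 of the 10 genes, in 16 windows that run from 250 bases before a transcript start to 50 after it. Foxp2 had none. The 250 upstream bases are shown for Six3 and Ebf1, which differ between the classes in opposite directions, for Bcl11b, whose pattern over the libraries was nearest to that of Foxp1, and for Rarb, whose own product binds retinoid elements. Capitals mark a motif match and the rest is in lower case. The matches are the MEIS core in Six3, the EBF core in Bcl11b and a retinoid direct repeat in Rarb, and the Ebf1 window shown held no match.
Six3, chr17:85620584-85620833, plus strand: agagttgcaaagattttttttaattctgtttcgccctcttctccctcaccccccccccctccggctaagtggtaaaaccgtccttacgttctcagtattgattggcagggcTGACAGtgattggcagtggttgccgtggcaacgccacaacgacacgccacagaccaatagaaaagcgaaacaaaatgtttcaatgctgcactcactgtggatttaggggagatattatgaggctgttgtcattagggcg
Ebf1, chr11:44617850-44618099, plus strand: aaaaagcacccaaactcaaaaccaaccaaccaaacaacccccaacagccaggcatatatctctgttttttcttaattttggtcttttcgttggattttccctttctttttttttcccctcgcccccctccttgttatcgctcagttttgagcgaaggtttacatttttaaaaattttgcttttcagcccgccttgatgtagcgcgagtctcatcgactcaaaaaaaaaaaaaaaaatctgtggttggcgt
Bcl11b, chr12:108003415-108003664, minus strand: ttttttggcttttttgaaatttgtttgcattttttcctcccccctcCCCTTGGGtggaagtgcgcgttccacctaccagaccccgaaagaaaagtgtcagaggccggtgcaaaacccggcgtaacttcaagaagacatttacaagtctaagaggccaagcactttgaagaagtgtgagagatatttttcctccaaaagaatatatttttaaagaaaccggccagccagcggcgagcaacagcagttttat
Rarb, chr14:16575477-16575726, minus strand: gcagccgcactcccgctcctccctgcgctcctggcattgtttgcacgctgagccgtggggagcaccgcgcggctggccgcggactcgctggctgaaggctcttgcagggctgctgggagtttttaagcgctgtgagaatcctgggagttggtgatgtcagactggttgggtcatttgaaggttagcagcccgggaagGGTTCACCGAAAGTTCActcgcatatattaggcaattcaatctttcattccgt

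The motifs were searched on both strands of each whole window of 300 bases. The retinoid direct repeat, searched as a pattern of letters, is a pair of retinoid receptor sites on 1 strand with 5 bases between them. It occurred in 0.0974% of all 32851 promoter windows, which is 32 windows, and the Rarb match lies at positions -53 to -37, where -1 is the last base before the start. The MEIS core TGACAG was found in 4 of the 16 windows, those of Foxp1, Rarb, Sp8 and Six3, and in 19.2% of all windows. The EBF core CCCNNGGG was found in 2 of the 16 windows, of Foxp1 and Bcl11b, and in 13.7% of all windows. The GC box GGGCGG, bound by SP factors, was found in 4 of the 16, of Foxp1, Sp8 and Mef2c, and in 35.7% of all windows. The forkhead core TGTTTAC (3.65% of all windows) and the MEF2 box (0.557%) had no match in the 16 windows. A match here is a stretch of letters and not a measured binding site.

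Divided by exon length, the 10 genes spanned a wide range of levels. In D1 Control libraries Bcl11b, the zinc-finger protein also called CTIP2, was highest at 75.2 ± 6.39 CPM per kb (SD, n = 5). Meis2, at 38.7 ± 2.19, and Foxp1, at 38.4 ± 4.13 CPM per kb, followed, and their ranges overlapped each other but not that of Bcl11b. Next came Six3, Mef2c, Rarb, Foxp2 and Zfp503, with means from 21.1 to 11.6 CPM per kb, and each overlapped its neighbour in the order. Ebf1, at 2.09 ± 0.315, and Sp8, at 1.18 ± 0.538 CPM per kb, lay apart from all others and overlapped each other.

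In D2 Control libraries Foxp1 stood ahead of Meis2, and Ebf1 behind Sp8. Bcl11b had 96.7 ± 14.1 and Foxp1 64.7 ± 13.9 CPM per kb (SD, n = 5), and the ranges of the pair overlapped. Meis2 followed at 46.4 ± 2.69 and Six3 at 37.5 ± 3.22 CPM per kb, each apart from its neighbours. Ebf1 took the last place at 0.811 ± 0.499 CPM per kb, and its range overlapped that of Sp8 at 1.52 ± 0.669. These are orders of level and were not tested between genes.

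**Figure D1:**
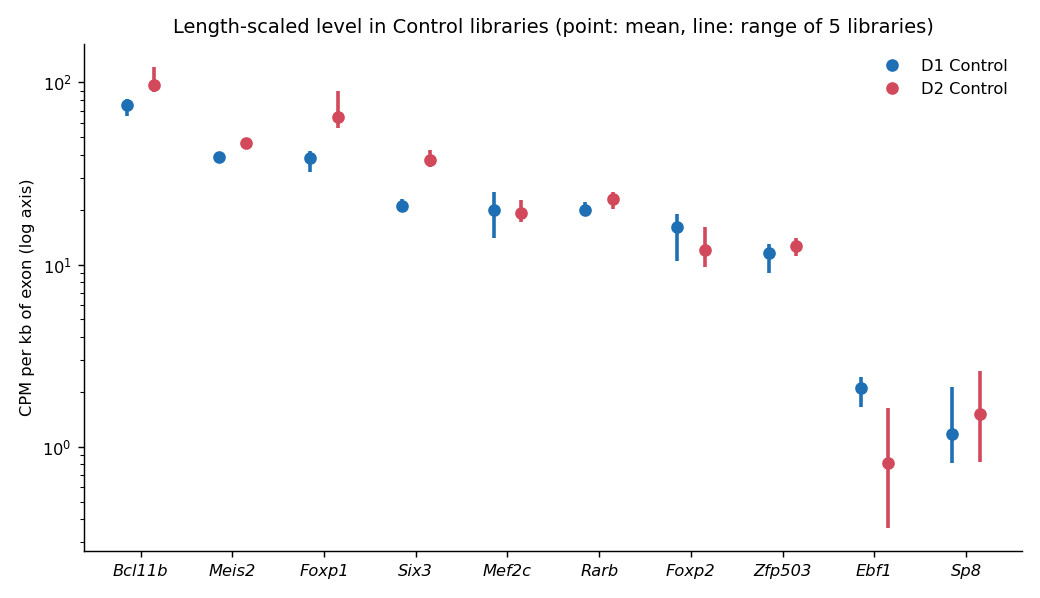
Length-scaled level of the 10 genes in D1 Control and D2 Control libraries, in CPM per kb of exon on a log axis; points are means and lines the range of 5 libraries. Bcl11b is highest in both, at 75.2 and 96.7 CPM per kb, and Ebf1 and Sp8 are lowest.

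Between the classes, Six3 was lower in D1 than in D2 libraries in all 3 stress groups, Foxp1 in Control and Susceptible, and Ebf1 was higher in D1 in Control. Bcl11b, Meis2 and Rarb were lower in D1 in Susceptible libraries, while Foxp2, Zfp503, Sp8 and Mef2c passed edgeR's test over all libraries in none of the 3 comparisons. Whole tissue from which ribosomes are pulled cannot tell fewer cells of a type from less RNA per cell. The test was edgeR's quasi-likelihood F test with Benjamini-Hochberg adjustment over all 19368 genes, at an adjusted p under 0.05. In Control, 3 of 10 members were called, 1 higher and 2 lower in D1, where 8.3% of all genes tested were called. In Resilient, 1 of 10 was called, lower in D1, against 6.65% of all genes. In Susceptible, 5 of 10 were called, all lower in D1, against 23.9% of all genes. DESeq2 also called Meis2 and Rarb in Control, Ebf1 in Resilient, and Zfp503 and Mef2c in Susceptible, where it called 11.7%, 8.25% and 28% of the genes it tested. The median log2 difference of the 10 members, D1 minus D2, was -0.24, -0.12 and -0.40 in the 3 groups, beside -0.003, -0.003 and 0.017 over all genes tested.

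The ranges of the D1 and D2 libraries did not overlap for 5 members in Control (Foxp1, Bcl11b, Ebf1, Meis2 and Six3), for 0 in Resilient and for 4 in Susceptible (Foxp1, Bcl11b, Meis2 and Six3). Over all genes tested, 11.7%, 9.7% and 8.92% had ranges that did not overlap. Without the 4 libraries that stood apart, 6 members were called in Resilient: Six3, Foxp1, Meis2 and Sp8 lower in D1, and Ebf1 and Foxp2 higher. In that fit 12.5% of all genes were called. Markers of other cell types moved with class. In Control, Resilient and Susceptible, 6, 6 and 6 of 6 endothelial and mural markers were lower in D1, 3, 5 and 4 of 6 astrocyte markers, and 0, 2 and 4 of 6 oligodendrocyte markers. The cortical markers were higher in D1 for 4, 5 and 4 of 6, and the interneuron markers for 4, 4 and 6 of 8. Their part in the members' differences was not tested.

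**Figure D2:**
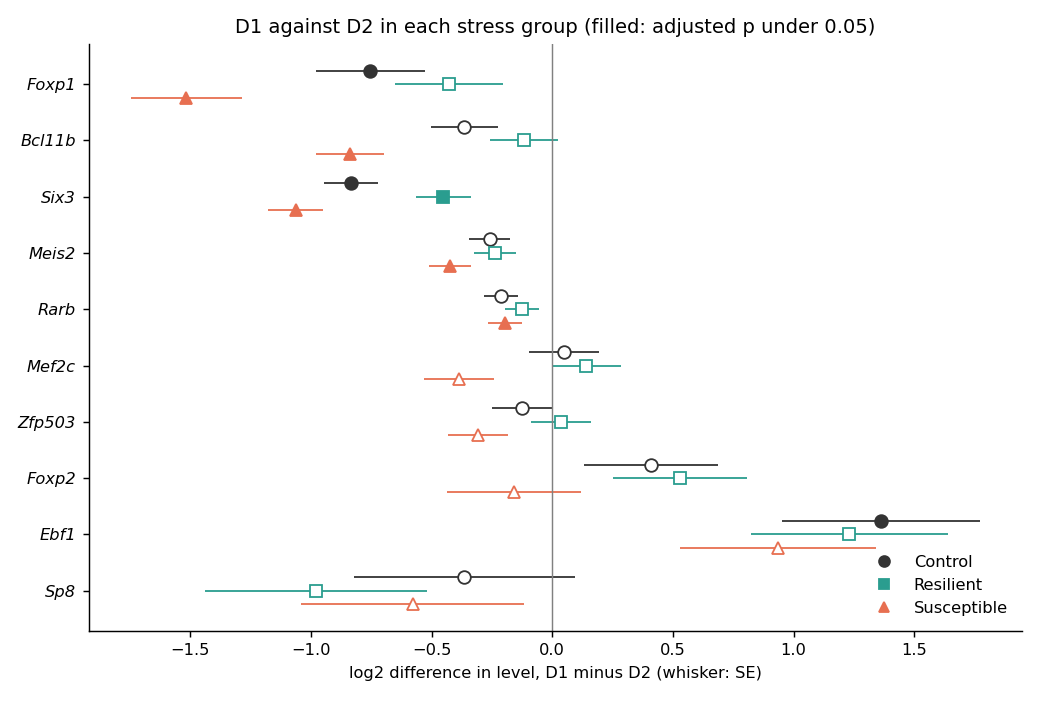
Log2 difference in level, D1 minus D2, of each member in Control, Resilient and Susceptible libraries, with its SE from the fit; filled symbols passed an adjusted p under 0.05. Six3 is filled in all 3 groups, at -0.83, -0.45 and -1.06, and Ebf1 lies to the right of 0 in all 3.

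Six3, a homeodomain protein needed for indirect-pathway neurons in development, lies on chromosome 17 from 85613608 to 85629302 on the plus strand. In D1 Control libraries it had 112, 119, 106, 125 and 113 CPM, and in D2 Control libraries 205, 194, 188, 233 and 202 CPM. The D2 libraries were all higher, 204 ± 17.5 against 115 ± 7.42 CPM (SD, n = 5), a 1.78-fold difference in edgeR's fit (log2 D1 minus D2 -0.83, SE 0.113, adjusted p = 7.20e-06). In Resilient the levels were 115, 122.5, 119.7, 121 and 159 CPM in D1 and 183, 176, 171, 188 and 152 CPM in D2. Replicate 5 of each class came close to the other class there, and the groups overlapped by this pair alone. The Resilient difference was 1.37-fold (log2 -0.45, SE 0.112, edgeR adjusted p = 0.00889).

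In Susceptible, Six3 had 116, 116, 109, 114 and 119 CPM in D1 and 306, 300.7, 186, 217 and 192 CPM in D2. The D1 libraries varied by a coefficient of variation of 3.30% and the D2 libraries by 24.5%, with replicates 1 and 2 high. The difference was 2.09-fold (log2 -1.06, SE 0.113, edgeR adjusted p = 1.49e-07), and -0.76 (SE 0.0905, adjusted p = 1.32e-06) without D2 Susceptible replicates 1 and 2. The Six3 call held under every alternative run in each of the 3 groups. Of its exon bases, 5.03% are shared with genes on the other strand, Six3os1 and Gm28528, and the strand setting of the counting is not given, so reads of these cannot be told apart.

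**Figure D3:**
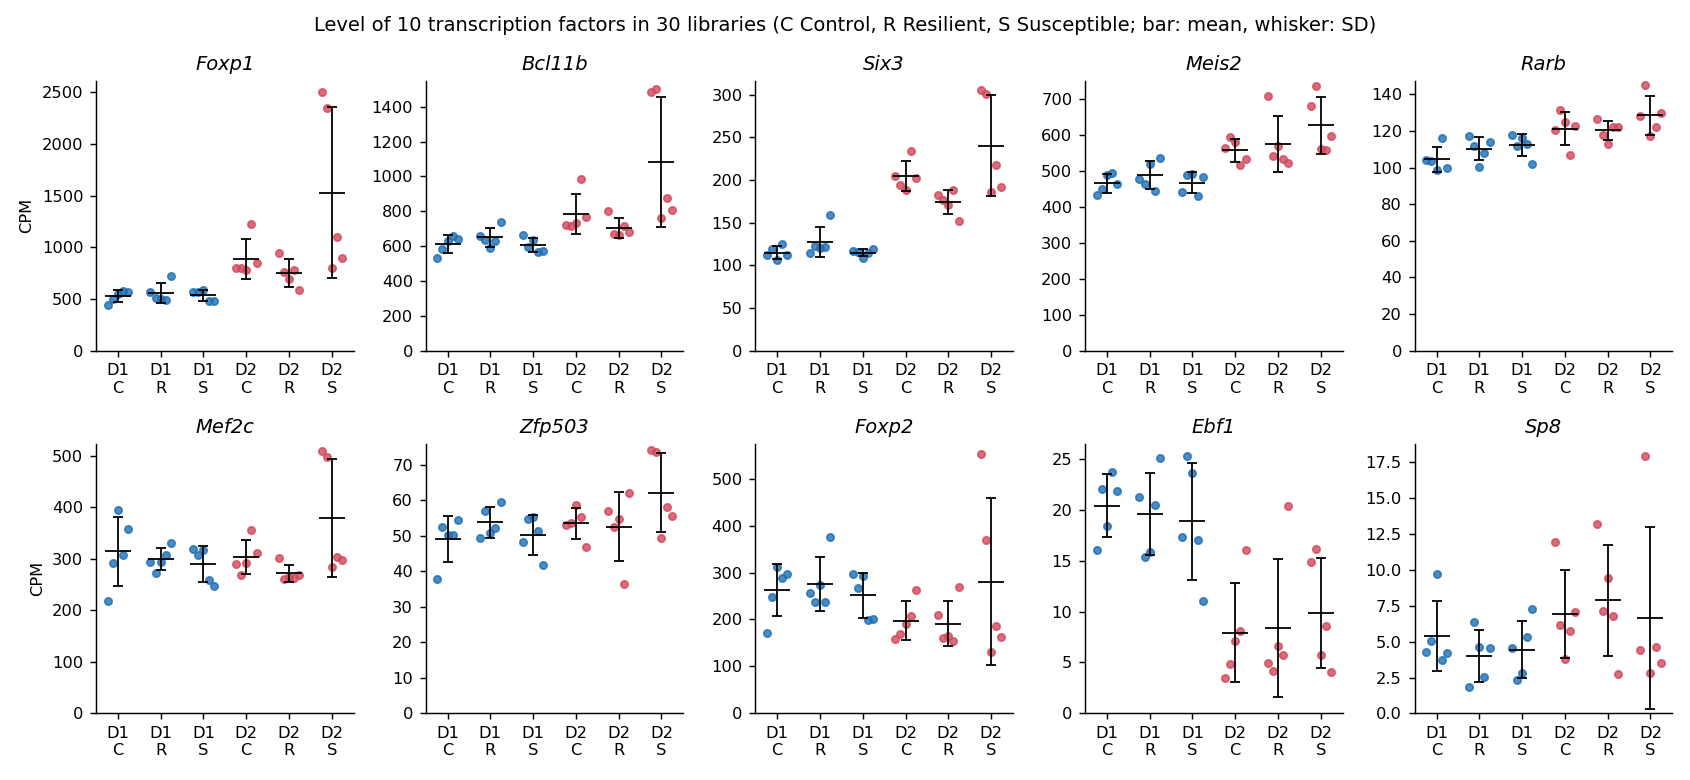
Level in CPM of the 10 members in each of 30 libraries, by class and stress group; the axis starts at 0, bars are means and whiskers SD of 5 libraries. Six3 separates the classes at 152 CPM and above in D2 apart from 1 D1 library at 159, and in D2 Susceptible a pair of libraries lies far above the others for Foxp1, Bcl11b, Six3 and Mef2c.

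Foxp1, a forkhead repressor found in both classes, lies on chromosome 6 from 98925338 to 99522721 on the minus strand, and shares 3.16% of its exon bases with 2 predicted genes on the same strand. In D1 Control libraries it had 441, 503, 547, 581 and 566 CPM, and in D2 Control libraries 797, 800.2, 778, 1230 and 845 CPM. Every D2 Control library was above every D1 Control library, at 889.9 ± 192 against 528 ± 56.8 CPM (SD, n = 5), a 1.69-fold difference (log2 D1 minus D2 -0.75, SE 0.226, edgeR adjusted p = 0.0343). The call was lost without any 1 of D1 Control replicates 1 to 5 or D2 Control replicates 1, 2 and 4, with edgeR adjusted p from 0.0502 to 0.152. The direction stayed the same, and the log2 value lay between -0.79 and -0.57 over all alternatives.

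In Resilient, Foxp1 had 571, 510.5, 499.7, 495 and 720.4 CPM in D1 and 947, 759, 691, 782 and 583 CPM in D2, and replicate 5 of each class was again the one nearest the other class. The log2 difference was -0.43 (SE 0.225, edgeR adjusted p = 0.395), and -0.51 (SE 0.130, adjusted p = 0.00701) without the 4 libraries that stood apart. In Susceptible it had 568, 564, 583, 483 and 478 CPM in D1 and 2506, 2348, 797, 1104 and 897 CPM in D2. D2 Susceptible replicates 1 and 2 were over 2 times as high as the other 3. The difference was 2.86-fold (log2 -1.52, SE 0.230, edgeR adjusted p = 3.28e-05), and fell to -0.78 (SE 0.144, adjusted p = 0.000394) without that pair.

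Bcl11b, needed for medium spiny neurons to mature, followed Foxp1 closely over the libraries. The gene spans chromosome 12 from 107910403 to 108003602 on the minus strand. Levels in D1 Control were 532, 583, 632, 659.5 and 642 CPM and in D2 Control 721, 716, 731, 985 and 768 CPM. These ranges did not overlap, but the difference missed the threshold (log2 D1 minus D2 -0.36, SE 0.140, edgeR adjusted p = 0.114). In Susceptible, D1 libraries had 568 to 662 CPM and D2 libraries 1483, 1499, 759, 875 and 807 CPM. The D2 libraries were higher there, 1.79-fold (log2 -0.84, SE 0.141, edgeR adjusted p = 8.73e-05), with a log2 difference of -0.40 (SE 0.0952, adjusted p = 0.00443) when replicates 1 and 2 were left out. In Resilient the log2 difference was -0.12 (SE 0.140, adjusted p = 0.872).

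Foxp2, the forkhead relative of Foxp1 known from speech and motor learning, had a mean level on the other side of 0. It lies on chromosome 6 from 14901349 to 15441977 on the plus strand. Control means were 263 ± 56.0 CPM in D1 and 198 ± 40.9 CPM in D2 (SD, n = 5), with overlapping ranges and a log2 value of 0.41 (SE 0.278, edgeR adjusted p = 0.475). In Susceptible the value was -0.16 (SE 0.278, adjusted p = 0.720), where D2 libraries had 552, 369.7, 132, 186 and 162 CPM and replicates 1 and 2 stood well above the rest. Without that pair it was 0.67 (SE 0.217, adjusted p = 0.0475), and in Resilient without the 4 libraries 0.68 (SE 0.180, adjusted p = 0.0117). Voom with quality weights over all libraries called Foxp2 higher in D1 in Control, Resilient and Susceptible (voom adjusted p = 0.00109, 0.00611 and 0.00560). It called 5491, 3416 and 3295 of 19368 genes in these comparisons. The edgeR sign in Susceptible turned without D2 Susceptible replicates 1 and 2. It also turned without replicate 1 alone, but not without replicate 2 alone.

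Ebf1, a helix-loop-helix factor needed for direct-pathway neurons, was the only member higher in D1 in a comparison that passed edgeR's test over all libraries. The gene runs on chromosome 11 from 44617317 to 45008091 on the plus strand. D1 Control libraries had 16.1, 22.0, 18.4, 23.6 and 21.8 CPM, and D2 Control libraries 3.50, 4.87, 7.13, 8.06 and 16.0 CPM. The D2 Control libraries were all lower, though replicate 5 lay just under the lowest D1 library. The difference was 2.57-fold (log2 1.36, SE 0.409, edgeR adjusted p = 0.0356). That call was lost without any 1 of D1 Control replicates 2 to 5 or D2 Control replicates 1 to 4, with edgeR adjusted p from 0.0598 to 0.0972.

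In Resilient, Ebf1 had 15.4 to 25.0 CPM in D1 and 4.95, 4.20, 6.60, 5.75 and 20.3 CPM in D2, where replicate 5 lay among the D1 libraries. The log2 difference was 1.23 (SE 0.408, edgeR adjusted p = 0.0730) and 1.88 (adjusted p = 0.000845) without D2 Resilient replicate 5. In Susceptible, D1 libraries had 11.0 to 25.3 CPM and D2 libraries 14.8, 16.1, 5.77, 8.61 and 4.06 CPM, with replicates 1 and 2 high. The log2 difference was 0.94 (SE 0.407, edgeR adjusted p = 0.0941) and 1.64 (SE 0.485, adjusted p = 0.0308) without that pair.

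The 4 D2 libraries with over 14 CPM of Ebf1 were of 2 kinds by their class markers. D2 Control replicate 5 and D2 Resilient replicate 5 had the lowest marker indices of the D2 libraries, 1.83 and 0.92, and 247 and 414 CPM of Drd1, the D1 receptor. D2 Susceptible replicates 1 and 2 had indices of 4.01 and 4.96 and 74.4 and 60.4 CPM of Drd1. Their 7 D1 markers summed to 637 and 516 CPM, above the 281 to 368 CPM of D2 Susceptible replicates 3 to 5. D1 libraries had 377 to 616 CPM of Drd1. The other 11 D2 libraries had 3.50 to 8.61 CPM of Ebf1. Whether RNA of D1 neurons took part in the Ebf1 levels of either kind was not tested.

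**Figure D4:**
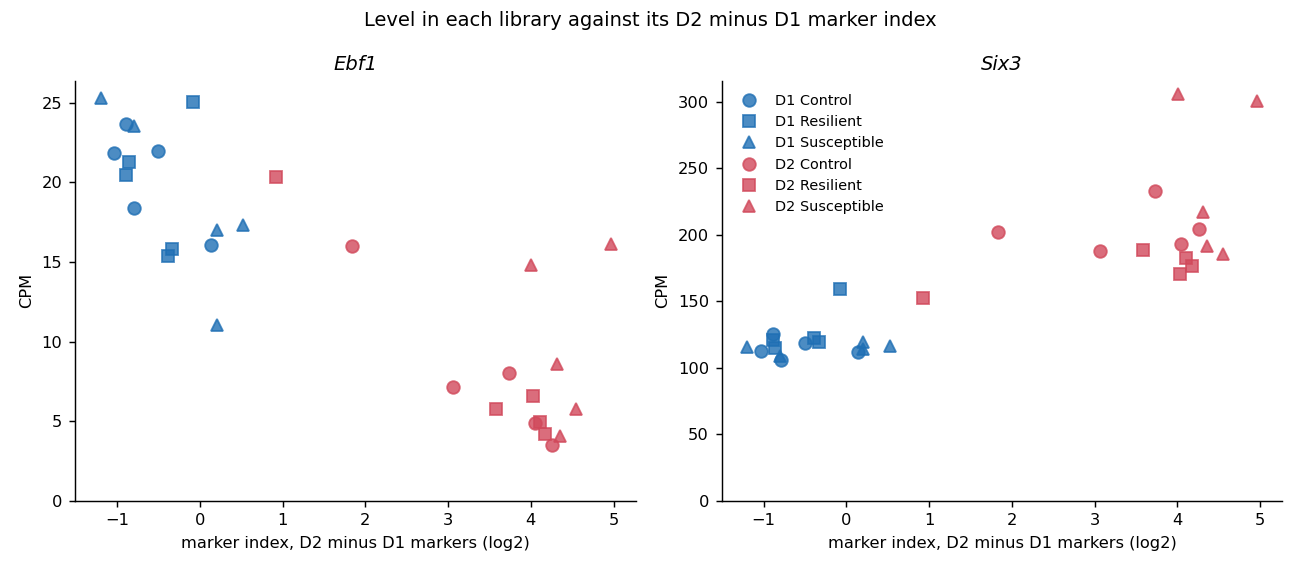
CPM of Ebf1 and Six3 in each library against its marker index (mean log2 level over 6 D2 markers less the mean over 7 D1 markers); colour gives the class and shape the stress group. The D2 libraries at indices 0.92 and 1.83 have 20.3 and 16.0 CPM of Ebf1, and a pair at 4.01 and 4.96 has 14.8 and 16.1, above the other D2 libraries.

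Meis2, a homeodomain partner of PBX proteins, differed modestly and with a small spread. Its position is chromosome 2 from 115863064 to 116065839 on the minus strand. In Control it had 466 ± 26.3 CPM in D1 and 558 ± 32.4 CPM in D2 (SD, n = 5), with no overlap, and the difference missed the threshold (log2 -0.26, SE 0.0868, edgeR adjusted p = 0.0600). In Susceptible, D1 libraries had 432 to 493 CPM and D2 libraries 681, 736, 561, 560.3 and 599 CPM. The D2 libraries were higher, 1.34-fold (log2 -0.42, SE 0.0869, edgeR adjusted p = 0.000896), and the log2 difference was -0.27 (SE 0.0869, adjusted p = 0.0422) without replicates 1 and 2. In Resilient it was -0.24 (SE 0.0868, adjusted p = 0.120), with a D2 range of 523 to 709.6 CPM.

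Rarb, the retinoic acid receptor beta, which switches on target genes when retinoic acid binds, had the narrowest spread of the 10 over the whole series, 1.47-fold from its lowest to its highest library. The gene spans chromosome 14 from 16430839 to 16819156 on the minus strand. In Susceptible the D2 libraries were higher, at 128 ± 10.5 against 112 ± 6.09 CPM (SD, n = 5), with overlapping ranges (log2 -0.20, SE 0.0705, edgeR adjusted p = 0.0422). The call was lost in 14 of 18 alternatives, among them leaving out any 1 of D1 Susceptible replicates 2 to 5 or D2 Susceptible replicates 1, 2, 4 and 5, which gave adjusted p from 0.0625 to 0.218. With the replicate block it was lost too (adjusted p = 0.0542). The Control log2 difference was -0.21 (SE 0.0704, edgeR adjusted p = 0.0549) and the Resilient one -0.13 (SE 0.0704, adjusted p = 0.451). Of the exon bases of Rarb, 38.4% are shared with genes on the other strand, Top2b and Gm48162, so part of its count is uncertain without the strand setting.

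Zfp503, a zinc-finger protein of the developing striatum also called Nolz1, passed edgeR's test over all libraries in no comparison. It lies on chromosome 14 from 21983959 to 21989601 on the minus strand, and ranged from 36.4 to 74.0 CPM, with both D2 Susceptible replicates 1 and 2 above 73 CPM. Its log2 differences between D1 and D2 were -0.13, 0.036 and -0.31 in Control, Resilient and Susceptible, with edgeR adjusted p of 0.675, 0.977 and 0.0697. In Susceptible, leaving out D2 Susceptible replicate 3 gave -0.36 (adjusted p = 0.0277), and DESeq2 over all libraries -0.33 (adjusted p = 0.0441). Without D2 Susceptible replicates 1 and 2 it was -0.091 (SE 0.123, edgeR adjusted p = 0.729).

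Sp8, a zinc-finger protein that acts with its relative Sp9 in making indirect-pathway neurons, was near the low end of the genes measured here. It lies on chromosome 12 from 118846329 to 118852576 on the plus strand and had 1.87 to 9.68 CPM in D1 and 2.73 to 17.9 CPM in D2 libraries. Its coefficient of variation within groups ran from 44.0% to 95.5%. The log2 differences between D1 and D2 were -0.36, -0.98 and -0.58 in the 3 groups, with edgeR adjusted p of 0.768, 0.296 and 0.385. Without the 4 libraries that stood apart, Resilient gave -1.20 (SE 0.380, adjusted p = 0.0384) and Susceptible 0.29 (adjusted p = 0.767). Sp8 is also known from immature neurons, and summed neuroblast markers ran from 104 to 168 CPM in D1 and 124 to 335 CPM in D2 libraries. The part of such cells in the Sp8 level was not tested.

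Mef2c, a MADS-box factor whose activity is set by calcium signals, did not pass edgeR's test over all libraries in any class comparison. It lies on chromosome 13 from 83504034 to 83667080 on the plus strand. D1 Control libraries had 219, 291, 395, 308 and 358 CPM, and D2 Control libraries 289.6, 268, 292, 356 and 312 CPM. The ranges overlapped throughout and the log2 difference was 0.05 (SE 0.144, edgeR adjusted p = 0.921). In Susceptible it was -0.38 (SE 0.145, adjusted p = 0.0508), with D2 levels of 509, 498, 284, 304 and 298 CPM, and DESeq2 called it over all libraries (-0.41, adjusted p = 0.0305). Without D2 Susceptible replicate 3, 4 or 5, or without D1 Susceptible replicate 1, the difference passed the threshold (-0.45 to -0.42, adjusted p from 0.0166 to 0.0491), while without D2 Susceptible replicates 1 and 2 it was -0.0049 (SE 0.118, adjusted p = 0.990).

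Among D1 libraries, no member passed the test in any of the 3 stress comparisons (Susceptible minus Control, Resilient minus Control, Susceptible minus Resilient). The log2 differences of the 10 members lay between -0.43 and 0.16, and Sp8 gave both ends. The adjusted p was 1 for all 10 in all 3, 0 members had an unadjusted p under 0.05, and DESeq2 and voom called none either. All genes gave the same count with edgeR, with 0% called in each. Of all genes, 2.40%, 2.60% and 3.49% had an unadjusted p under 0.05, in the order of comparisons above. In the order of comparisons above, DESeq2 called 3, 1 and 8 of 19330 genes, and voom 0, 173 and 15 of 19368. For Six3, D1 libraries had means of 115, 127 and 115 CPM in Control, Resilient and Susceptible, and for Ebf1 20.4, 19.6 and 18.8 CPM. Over all alternatives run, the members' log2 values stayed between -0.66 and 0.40.

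Among D2 libraries no member passed the test either, and the smallest adjusted p-values were those of Foxp1, Bcl11b, Six3 and Mef2c in Susceptible against Resilient. Foxp1 had a log2 value of 1.02 (SE 0.227, edgeR adjusted p = 0.0558) and Bcl11b of 0.62 (SE 0.140, adjusted p = 0.0558). Six3 had 0.46 (SE 0.112, adjusted p = 0.0586) and Mef2c 0.48 (SE 0.145, adjusted p = 0.0864). These 4 of 10 members had an unadjusted p under 0.05, as did 19.1% of all genes. At the adjusted threshold, 0 of 10 members and 0.0516% of all genes were called. DESeq2 called the same 4, and 5.05% of the genes it tested. So did edgeR without D2 Susceptible replicate 3, without replicate 4 or without replicate 5, which leaves the high pair a larger share of the group, and which called 9.93%, 2.08% and 8.11% of all genes. With replicates 1 and 2 left out, the log2 values were 0.31 for Foxp1, 0.20 for Bcl11b, 0.18 for Six3 and 0.12 for Mef2c, with edgeR adjusted p of 0.910, 0.908, 0.924 and 1.

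In D2 Susceptible against Control, Foxp1 had a log2 value of 0.78 (SE 0.226, edgeR adjusted p = 0.158) and Bcl11b of 0.47 (SE 0.140, adjusted p = 0.159). There 4 members had an unadjusted p under 0.05, as did 15.7% of all genes. Of the 10 members, 0 were called, also by DESeq2 and voom, and edgeR called 0.00516% of all genes. DESeq2 called 255 of 19330 genes and voom 0 of 19368. Without D2 Susceptible replicate 3, or without replicate 5, edgeR called 2 members, Foxp1 and Bcl11b, beside 4.19% and 0.858% of all genes. Without replicates 1 and 2, the Foxp1 value was 0.061 and that of Bcl11b 0.046. In D2 Resilient against Control, 0 of 10 members were called by edgeR, DESeq2 or voom, and 1 had an unadjusted p under 0.05 (Six3, log2 -0.23, edgeR adjusted p = 1.00). Of all genes, 4.20% had an unadjusted p under 0.05 there, and edgeR called 0%, DESeq2 5 of 19330 and voom 0 of 19368. These comparisons share libraries with each other, the Susceptible ones in particular, and are not independent.

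**Figure D5:**
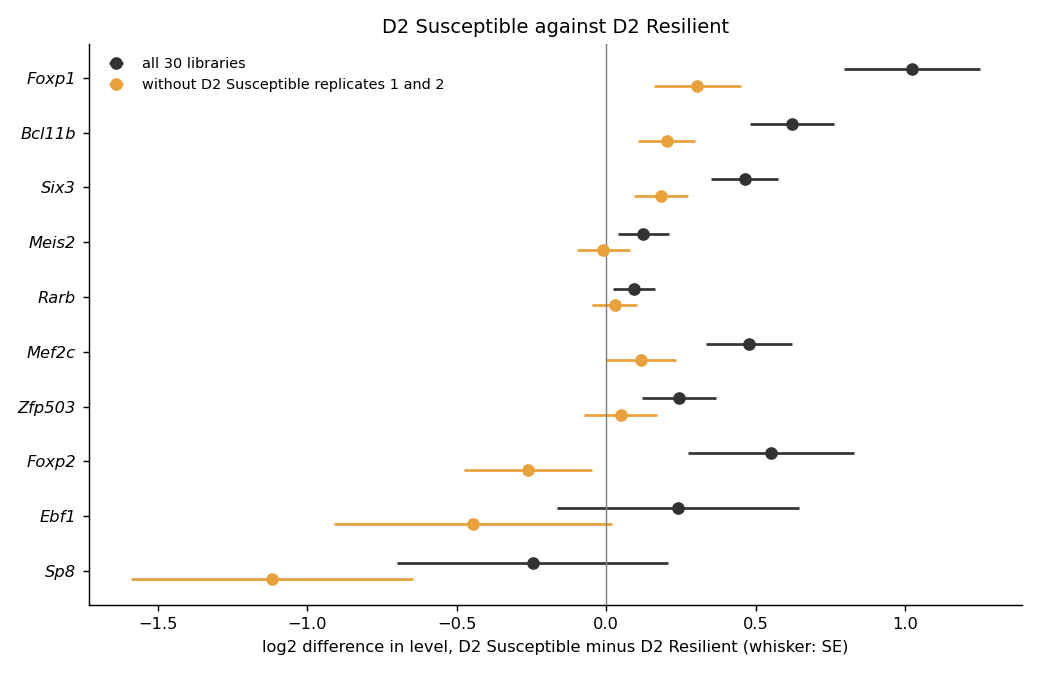
Log2 difference in level of each member, D2 Susceptible minus D2 Resilient, with its SE, over all 30 libraries and without D2 Susceptible replicates 1 and 2. Foxp1 moves from 1.02 to 0.31, and Foxp2 and Ebf1 pass from above 0 to below it.

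The 5 D2 Susceptible libraries were not alike for these genes. The mean of replicates 1 and 2 was 2.60 times that of replicates 3 to 5 for Foxp1, 1.83 times for Bcl11b, 1.70 times for Mef2c and 1.53 times for Six3. Sp8, Foxp2 and Ebf1 had ratios of 3.07, 2.88 and 2.52, while Zfp503, Meis2 and Rarb had 1.36, 1.24 and 1.11. In both libraries Foxp1, Bcl11b, Zfp503, Six3 and Mef2c lay above all 28 others, which was so for 10.3% of all genes tested. The same pair had the fewest genes with a count. Their oligodendrocyte markers summed to 1894 and 1454 CPM, where the others had 383 to 1363, and their neuroblast markers to 284 and 335 CPM. The part of these in the members' levels was not tested.

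Whether stress comparisons differed between the classes was tested as a difference of changes, (D1 minus D2) in one stress group minus that in another. No member passed in any of the 3, and 0% of all genes were called in each. The values farthest from 0 with the smallest unadjusted p were in Susceptible minus Resilient: Foxp1 had -1.09 (SE 0.319, edgeR adjusted p = 0.236), Bcl11b -0.72 (SE 0.198, adjusted p = 0.220) and Six3 -0.61 (SE 0.158, adjusted p = 0.213). In Susceptible minus Control, 3 members had an unadjusted p under 0.05, in Resilient minus Control 1, and in Susceptible minus Resilient 4. The shares of all genes with an unadjusted p under 0.05 were 7.79%, 4.99% and 12.4% in the same order. Without D2 Susceptible replicate 3, edgeR called 3 members, Foxp1, Six3 and Bcl11b, in Susceptible minus Resilient, beside 0.789% of all genes, and without replicates 1 and 2 it called 0 members.

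The relatives of the members and the other factors of the same pathways were counted in D1 against D2 Control. Of 14 tested relatives in the same families, 1 was lower in D1: Sp9, the partner of Sp8, at 17.3 ± 3.80 against 57.2 ± 10.3 CPM (SD, n = 5; log2 -1.73, SE 0.219, edgeR adjusted p = 3.41e-06). Sp9 is also one of the 6 D2 markers of the index. Of 19 tested factors of projection neuron development, 2 were higher in D1, Zfp521 (log2 1.84, adjusted p = 0.000794) and Isl1 (2.10, adjusted p = 0.0377), and 2 were lower, Sp9 and Dlx6 (-0.57, adjusted p = 0.0108). Isl1 is a LIM homeodomain protein of direct-pathway neurons, and Dlx6 a homeodomain protein of forebrain inhibitory neurons. In retinoid signalling, the pathway that Rarb serves, Rxrg, a partner receptor of Rarb, was lower in D1 (log2 -0.29, adjusted p = 0.0388). Of 10 genes that regulate MEF2 proteins, 0 passed.

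Factors of striatal interneurons, which the ribosome tag is not meant to mark, were higher in D1 Control for 6 of 12 tested, with Satb1 (log2 1.01, edgeR adjusted p = 9.73e-05) and Maf (1.37, adjusted p = 0.000796) at the smallest adjusted p. The median log2 difference of these 12 was 1.10, beside -0.003 over all genes. No gene of the 5 lists passed the test in any stress comparison or difference of changes.

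For 4 members the genes with the most similar pattern over the 30 libraries were sought, by the root mean square difference of standardised log2 CPM, where 0 is the same pattern. Ebf1 was closest to Tac1, the substance P precursor of direct-pathway neurons, at 0.352. Six3 was closest to Chchd7 (0.271) and Kcnk2 (0.289), Foxp2 to Fgf9 (0.385) and Pbx3 (0.431), and Sp8 to Sall3 (0.646) and Gprc5b (0.748). The median distance to all 15189 genes compared was 1.42 or more for each of the 4. Between members, Foxp1 and Bcl11b were the closest pair at 0.193, and Foxp1 and Six3 were at 0.389. Class, depth and library quality are shared by all genes of a library, so these distances describe the pattern and were not tested.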

How the data were processed

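Ribosome-bound RNA (10 ng per library, SMART-Seq v4, per the labels' protocols) was analysed in 30 libraries. The deposited values are raw read counts per gene; the submitters' processing notes name HISAT2, HTSeq and GRCm38 (mm10). Annotation release and strand setting: not given in the sources used here. The counts end with summary lines of unassigned reads, 10.1% to 53.3% of a library's reads, which were left out. The series table held the same counts in 30 columns. Replicate pairs all differed beyond sampling noise (60 pairs).

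Symbols and exon lengths came from GENCODE M21. Genes kept by filterByExpr (minimum count 10, minimum total 15) numbered 19368. Counts were scaled by TMM and fitted in 1 model of 6 groups with edgeR 4.0.16 (robust quasi-likelihood F test, R 4.3.3); p-values of the 12 comparisons were adjusted over these genes (Benjamini-Hochberg, threshold 0.05). Levels are CPM on TMM-scaled sizes. The common dispersion was 0.172. A count of 0 allows up to 3 counts, which covers counting error only. The scripts were tested on simulated data.

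Alternatives were DESeq2 1.42.0 (Wald test; size factors), no filter, only the groups compared, a replicate block, voom with quality weights (limma 3.58.1) and leaving out each library. Chosen after seeing the data were fits without D2 Susceptible replicates 1 and 2, and without these, D1 Susceptible replicate 1 and D2 Resilient replicate 5. All 10 members were named in every comparison; from other lists, at most 2 higher and 2 lower genes, those of smallest adjusted p in D1 against D2 Control, and any passing in a stress comparison; for Ebf1, Foxp2, Six3 and Sp8, the 2 genes nearest in pattern. A few genes these rules name are not reported here. Members and lists were chosen with earlier results of these data known. Nothing says pools came from separate cohorts, so p-values measure the spread between these pools.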

Additional observations from a re-analysis of the deposited data

Results flagged for a closer look

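Of 60 sets of 5 libraries (10 members in 6 groups), 8 had a library whose distance to the nearest other was more than 0.71 of the whole range, Dixon's 95% critical value, where chance gives about 1 in 20. The 10 members share the same libraries, so the 60 sets are not independent, and the 8 were not tested against that share. In D2 Control, replicate 4 was high for Foxp1 (1230 CPM, others 778 to 845) and Bcl11b (985 CPM, others 716 to 768). That library had 7.79% of reads outside annotated features and oligodendrocyte markers summing to 1363 CPM, the highest in D2 Control. In D2 Resilient, replicate 1 was high for Meis2 (709.6 CPM, others 523 to 569) and Mef2c (301.2 CPM, others 259.9 to 269), and replicate 5 for Ebf1 (20.3 CPM, others 4.20 to 6.60). Sp8 stood out in D2 Susceptible replicate 2 (17.9 CPM, others 2.79 to 4.62). Among D1 libraries, Six3 was high in D1 Resilient replicate 5 (159 CPM, others 115 to 122) and Zfp503 low in D1 Control replicate 1 (37.7 CPM, others 50.3 to 54.6). No cause was tested.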

How the results depend on the processing

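The count of members called moved in D1 against D2 Control. From 3, where 1608 of 19368 genes were called, it went to 5 with DESeq2 (2048 of 17453 genes) and 5 with only the groups compared (2696 of 17312). It was 7 with voom (5491 of 19368), 1 with no filter (1318 of 31153), and 1 to 3 when 1 library was left out. In Resilient, 1, beside 1288 of 19368 genes, became 2 with DESeq2 (1594 of 19330 genes) and 2 with only the groups compared (2184 of 17138). It was 6 with voom (3416 of 19368), 6 without the 4 libraries (2551 of 20339), and 1 to 2 with 1 library left out. For Control and Resilient, the shares of all genes with 1 library left out are not reported here. In D2 Susceptible against Resilient, 0, beside 10 of 19368 genes, became 4 with DESeq2 (976 of 19330 genes) and 0 to 4 with 1 library left out. Leaving out 1 library gave 0 to 2 in D2 Susceptible against Control and 0 to 3 in the difference of changes between Susceptible and Resilient. For these, the shares of all genes in the fits that called a member are given above. The causes were not tested.

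With the replicate block, 3, 1 and 4 members were called in Control, Resilient and Susceptible, beside 1497, 1230 and 4173 of 19368 genes. In the other 9 comparisons 0 members were called, beside at most 10 of all genes. The block changed no call but that of Rarb. Same-numbered libraries did not deviate together (correlations of -0.168 to 0.0779). With 5 libraries per group, this cannot tell whether a number stands for a shared litter or day.

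Signs turned for Mef2c in Control (-0.032 without D1 Control replicate 3, range with 1 library left out to 0.17), Zfp503 in Resilient (-0.051 without D2 Resilient replicate 4, range to 0.12), Mef2c in Susceptible (0.0056 with voom), Foxp2 in Susceptible (0.70 with voom, 0.67 without D2 Susceptible replicates 1 and 2, 0.59 without the 4 libraries, -0.32 to 0.26 with 1 library left out, the latter without D2 Susceptible replicate 1) and Sp8 in Susceptible (0.32 and 0.29 in the same 2 fits, -0.82 to 0.24 with 1 library left out, the latter without D2 Susceptible replicate 2). Over all libraries edgeR called none of these, while DESeq2 called Mef2c and voom called Foxp2 in Susceptible. Over all genes, calls in Susceptible were 4621 of 19368, against 915 of 16706 with only the groups compared. They were 2123 of 20427 without D2 Susceptible replicates 1 and 2, and 2163 of 20339 without the 4 libraries. Sp8 and Ebf1 had the lowest levels of the members, at 1.87 and 3.50 CPM in their lowest libraries, which held 100 and 201 counts of them. The part of depth in their spread was not tested.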
